A study of Mus musculus with 6 samples.

Results

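Reduced representation bisulfite sequencing (RRBS) measured 10755 gene regions in mouse quadriceps muscle. By the rule below, 65 of these had an intermediate mean level, with intermediate levels at 50% or more of their measured positions. They are called half-methylated regions here. Each is an autosomal region with 6 to 59 measured cytosine positions and a mean level of 30% to under 70% over its positions and the 6 samples. At least 50% of its positions had to lie at 25% to 75%, as the mean of the 6 samples. 7645 autosomal regions had 6 to 59 positions, so 0.850% of these were half-methylated. The 65 regions hold 726 positions and belong to 63 genes with a symbol, Gnas with 2 regions, and 1 transcript for which no symbol was matched.

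RRBS cuts DNA at short CpG-containing sites, converts unmethylated cytosine with bisulfite and reads the fragments, so that each covered cytosine has a methylated fraction. All mice were of the strain C57BL/6, with no genetic change named. The exercised group (3 samples) ran on a motor-driven treadmill for 4 weeks and the sedentary group (3 samples) did not. Quadriceps DNA was isolated 3 hours after the final session, per the labels' protocols. The labels give neither age nor sex, and do not say whether the 3 samples of a group are separate animals, so a p-value here measures only how far these samples differ, which may be technical.

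Most CpG-rich promoters are unmethylated in every cell, and most CpGs elsewhere are methylated in nearly every cell. An imprinted gene has 1 parental allele methylated at its control region and the other allele unmethylated, so that region reads near the middle in DNA of any tissue. The maternal or paternal mark is set in the germ line and is kept in the embryo by proteins such as ZFP57, which binds methylated TGCCGC. In bulk tissue, a middle level can also come from a mixture of methylated and unmethylated cells, or from positions that vary within a cell, and these cannot be told apart here. Known imprinted genes are therefore set beside the others.

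The mean level and the share of positions at 25% to 75% chose the regions and are a description only. The mean level over positions ran from 32.2% to 69.7% with a median of 54.3%, and 45 of the 65 regions lay at 40% to under 60%. Near the lower bound stood Myl12b, a regulatory light chain of non-muscle myosin, at 32.2%, and F11r, a tight-junction protein, at 40.2%. Near the upper bound, Tdrd1 at 69.7% and Cacnb1 at 69.5% were inside. Ddx4 at 70.2% and Padi3 at 73.3% met the share but were outside. At the bound on the share, Cntn4 and Tnfsfm13 were inside with 50% of their positions at 25% to 75%, while Hoxa2 with 48.5% and the imprinted gene Mkrn3 with 47.4% were outside. Another 1272 autosomal regions with 6 to 59 positions also had a mean level of 30% to under 70% but did not meet the share. They are called non-uniform regions here, and they sat lower in that range, with a median level of 34.8%. In these, 13.1% of 15818 positions lay at 25% to 75%, against 65.7% of the 726 positions in the half-methylated regions.

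**Figure D1:**
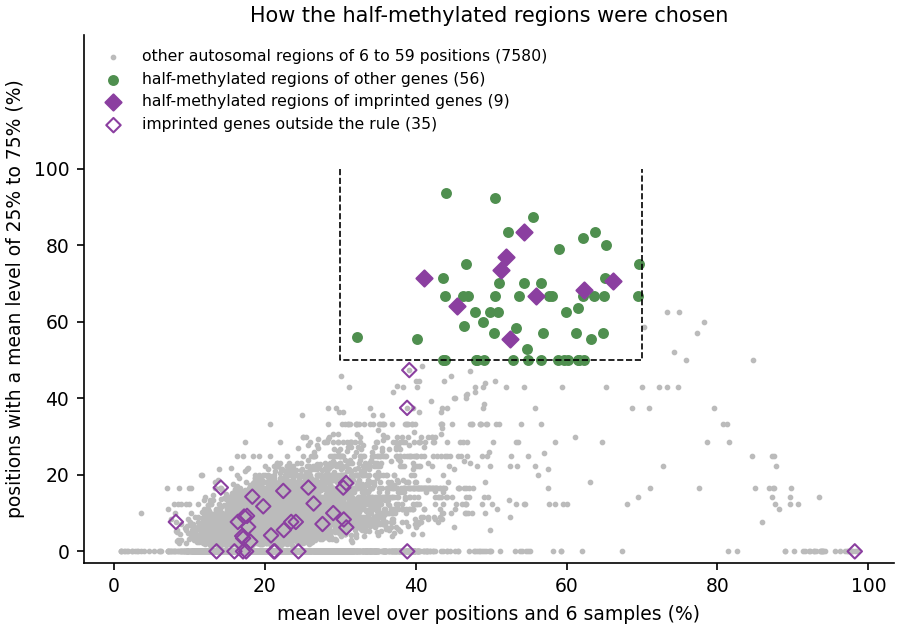
Mean level over positions and 6 samples (x axis, percent) against the percentage of a region's positions with a mean level of 25% to 75% (y axis), for autosomal regions with 6 to 59 positions. Dashed lines mark the bounds of the choice. The 65 half-methylated regions, 9 of imprinted genes (filled diamonds) and 56 of other genes (green circles), lie above the other regions of 30% to under 70%, and 35 regions of imprinted genes (open diamonds) fall outside the bounds.

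The letters around the positions show where in a promoter the middle levels sit. By matching measured positions to the CG letters of RefSeq promoters, the deposited regions were found to run from 2000 bases before to 1000 bases after the gene start (most frequent offset in 61.1% of 1472 windows on the plus strand and 62.0% of 1207 on the minus strand). Below are the 250 bases before the start of 5 genes, 5′ to 3′ on the gene's strand, from RefSeq (GRCm38.p6). Among the half-methylated regions whose window could be placed, these 5 windows hold the most measured positions outside enzyme sites, so they show the middle level letter by letter. Capitals mark CpGs measured on at least 1 strand. Igf2r is at chr17:12769707-12769956 (minus strand), Thpo at chr16:20734512-20734761 (minus), Papolb at chr5:142530077-142530326 (minus), Fgf6 at chr6:127015292-127015541 (plus) and Myl12b at chr17:70990517-70990766 (minus).
Igf2r: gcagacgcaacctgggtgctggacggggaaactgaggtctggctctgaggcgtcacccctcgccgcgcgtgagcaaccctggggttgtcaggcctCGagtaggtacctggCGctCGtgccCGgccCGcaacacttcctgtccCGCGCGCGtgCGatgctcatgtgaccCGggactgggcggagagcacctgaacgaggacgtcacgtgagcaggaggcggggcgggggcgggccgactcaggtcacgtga
Thpo: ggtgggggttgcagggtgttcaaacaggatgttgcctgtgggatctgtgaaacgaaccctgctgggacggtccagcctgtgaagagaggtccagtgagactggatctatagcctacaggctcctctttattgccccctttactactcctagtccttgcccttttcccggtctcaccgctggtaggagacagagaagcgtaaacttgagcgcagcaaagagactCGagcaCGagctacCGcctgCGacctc
Papolb: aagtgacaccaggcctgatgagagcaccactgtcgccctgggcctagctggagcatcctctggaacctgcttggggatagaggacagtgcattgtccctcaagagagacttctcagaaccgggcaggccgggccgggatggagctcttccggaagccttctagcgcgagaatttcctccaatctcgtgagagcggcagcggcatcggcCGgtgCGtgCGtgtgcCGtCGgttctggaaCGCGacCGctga
Fgf6: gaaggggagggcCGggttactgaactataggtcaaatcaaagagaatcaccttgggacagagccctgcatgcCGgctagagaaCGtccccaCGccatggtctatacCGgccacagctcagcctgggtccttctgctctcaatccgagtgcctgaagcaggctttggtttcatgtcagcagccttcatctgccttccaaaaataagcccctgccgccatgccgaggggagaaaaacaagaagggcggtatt
Myl12b: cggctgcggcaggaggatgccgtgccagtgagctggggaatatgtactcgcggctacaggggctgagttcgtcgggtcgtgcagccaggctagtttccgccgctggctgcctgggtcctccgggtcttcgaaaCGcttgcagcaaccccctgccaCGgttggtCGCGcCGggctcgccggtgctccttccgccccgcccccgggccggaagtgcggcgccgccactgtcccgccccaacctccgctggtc

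In the Igf2r promoter, which lies in an imprinted locus, 11 of 27 CpGs in the window were measured, at 20 positions, since the 2 strands of a CpG are listed separately. The 15 positions outside the letters CCGG and TCGA had levels of 20.8% to 43.4%, with a mean of 33.7%. Across the run of 4 adjoining CpGs in its middle, the strand opposite the gene read 38.4%, 34.3%, 29.7% and 33.8% from 102 to 108 bases before the start, with SDs over 6 samples of 6.67 to 8.79 points and 89.5 to 90.2 reads on average. The gene's strand read lower there, at 31.5%, 24.6%, 20.8% and 25.7%, with SDs of 12.4 to 20.3 points and 25.5 to 25.8 reads. The CpG of the TCGA 155 bases before the start read 94.7% on 1 strand and 43.6% on the other. At the CCGG 130 bases before the start the strands read 79.0% and 74.5%, but the CCGG 82 bases before it read 24.96%, measured on the strand opposite the gene. Levels of 20.8% to 43.4% were thus read at consecutive CpGs of this promoter. Of its 5 positions in those 4-letter sites, only the one at 24.96% lay within that range, and the one at 43.6% stood just above it.

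The Thpo window, upstream of the gene for the platelet growth factor thrombopoietin, gave 32.9% to 50.3% at its 4 positions outside those sites. Its TCGA, 27 bases before the start, gave 98.6% ± 1.73 on the strand opposite the gene and 73.3% ± 4.91 on the gene's strand (SD, n = 6). In Papolb, a testis poly(A) polymerase, 7 positions within 37 bases of the start ran from 15.4% to 50.6%, each covered by 67.5 to 88.5 reads on average. In Fgf6, a fibroblast growth factor of skeletal muscle, 4 positions outside the sites gave 31.0% to 52.4%. At its CCGG 178 bases before the start the strands read 47.4% ± 18.9 and 96.7% ± 5.16, and at the CCGG 144 bases before the start 49.2% ± 12.9 and 99.0% ± 2.40 (SD, n = 6). Myl12b was lower outside the sites, at 8.21% to 25.1% over 4 positions, and read 99.6% ± 0.888 at its CCGG (SD, n = 6).

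CCGG is the site of MspI, the enzyme usual in RRBS, and TCGA that of TaqI; the labels' text used here does not name the enzyme. Windows of known sequence could be placed for 2980 regions with 34223 positions. In them, 3990 positions had a level of at least 90%, and 98.9% of these lay in CCGG or TCGA. For the 13 half-methylated regions among them, all 15 positions of at least 90% lay in these sites. The other 23 of the 38 positions in these sites read below 90%, and in Dmap1 all 6 measured positions of the window lay in such sites, at 17.9% to 99.6%. Of the CpGs outside the sites, 42 of 50 (84.0%) in the half-methylated regions lay at 25% to 75%, with a median level of 35.6%. In the other 2967 regions, of any mean level, 61 of 24338 (0.251%) did, with a median of 1.41%. The choice itself required positions at 25% to 75%, so this contrast is a description and tests nothing. Igf2r alone gave 15 of the 50 positions. Within CCGG, by contrast, the median was 79.0% in the half-methylated and 69.9% in the other regions, and the shares of positions of at least 90% were 38.7% and 39.9%. Why positions in these letters read near 100% was not tested.

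**Figure D2:**
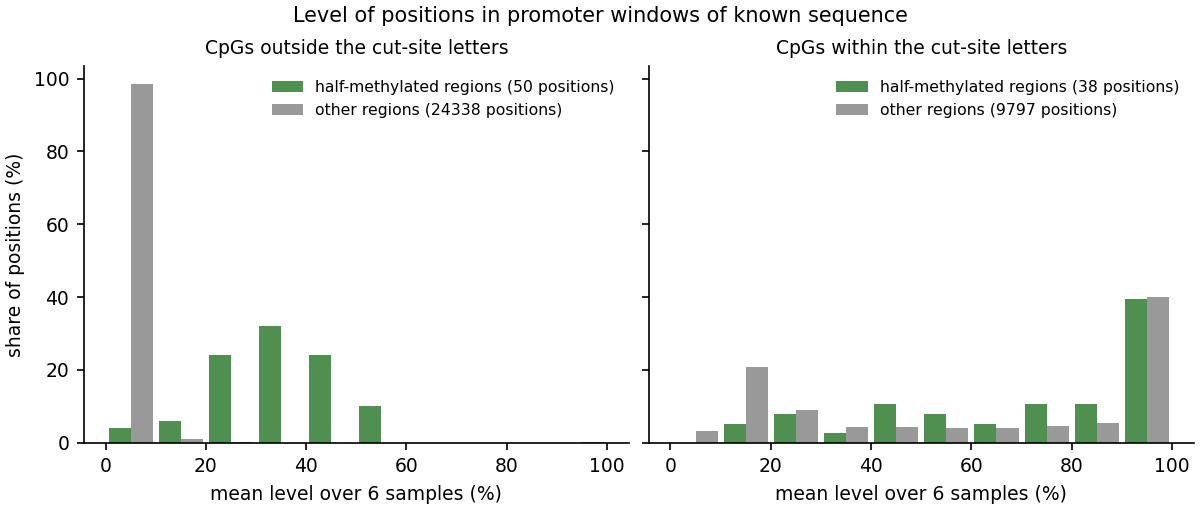
Share of positions (y axis, percent) by their mean level over 6 samples (x axis, steps of 10 percentage points), for CpGs outside (left) and within (right) the letters CCGG and TCGA. Outside these letters, 98.5% of positions in other regions (grey) lay below 10%, while the half-methylated regions (green) peaked at 30% to 40%. Within them both sets had about 40% of positions at 90% or more. The half-methylated regions were chosen by their level, so the left panel is a description.

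Over all 65 regions, whose windows mostly could not be placed, 131 of 726 positions (18.04%) had a level of at least 90%, 17 lay below 10% and 477 at 25% to 75%. At least 1 position of 90% or more was present in 60 of the 65 regions, and Mcts2, Eng, Gdf15, Ss18l2 and Septin9 had none. The 2 strands of a CpG were both covered in 242 pairs. In 116 of these both strands lay at 25% to 75%, with a median gap of 6.37 points. In 65 pairs 1 strand was at 90% or more and the other at 25% to 75%. A position was called stand-alone where it differed by over 50 points from the median of the others within 50 bp; 108 of the 726 positions did. Without them, the median level of the half-methylated regions was 47.2%, that of the 1272 non-uniform regions 12.1%, and that of all autosomal regions with 6 to 59 positions 5.80%. Many of the regions are short: in 32 the measured positions spanned 100 bp or less.

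**Figure D3:**
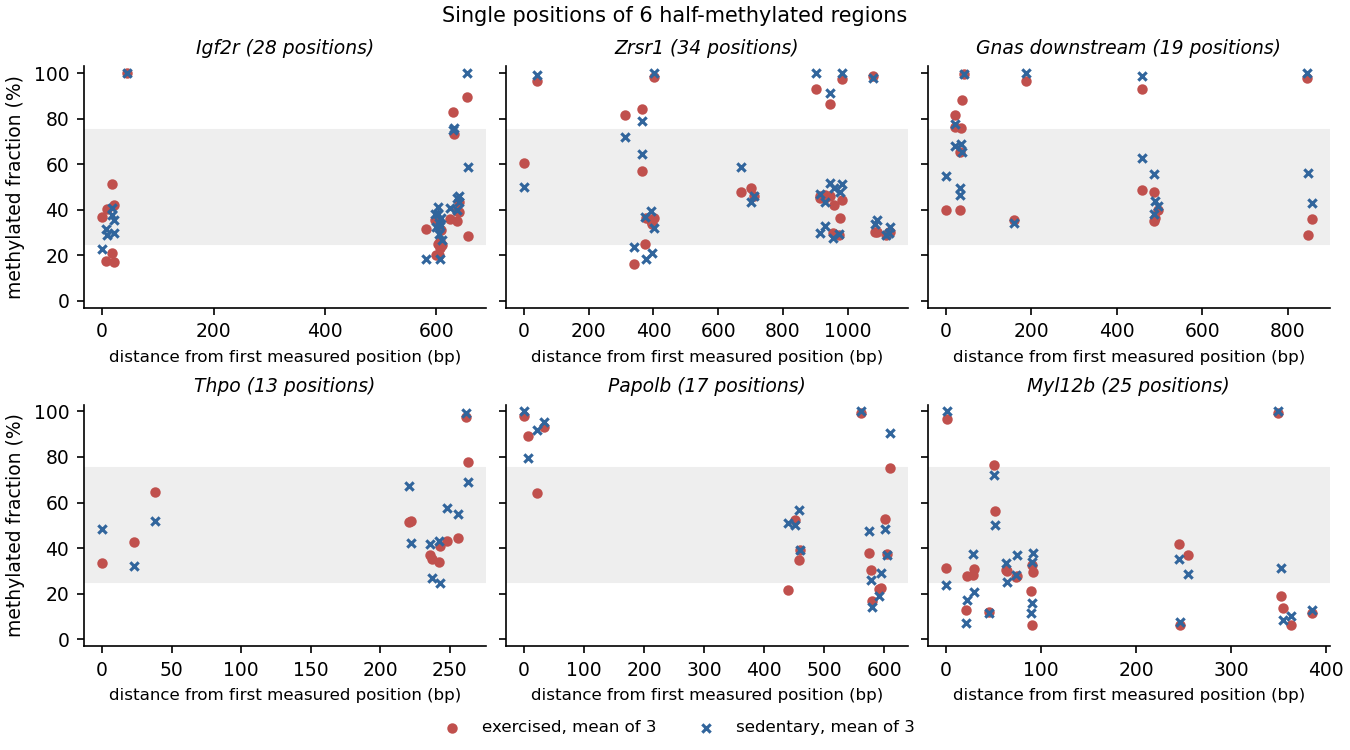
Methylated fraction of single positions (y axis, percent) against distance from the first measured position of the region (x axis, bp) for 6 half-methylated regions; circles are means of the 3 exercised and crosses of the 3 sedentary samples, and the grey band marks 25% to 75%. Middle levels run through each region at separate clusters of positions, with single positions near 100% among them. Some positions lie below the band, among them positions of Igf2r, Papolb and Myl12b.

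Of the 65 regions, 9 belong to imprinted genes. The list of imprinted genes held 44 autosomal regions with 6 to 59 positions, so 20.5% of these were half-methylated, against 56 of 7601 regions of other genes (0.737%). From here on, the level of a region in a sample is the percentage of its reads that were methylated, which is also the quantity tested, and a level given as a mean over positions is named so. Of the 9, 8 came from the list of genes with a known germ-line mark, which held 18 of the 44 regions. The list of other imprinted genes held 26 and gave 1, Cdkn1c. Where 3 values and then 3 values are given, the first are exercised samples 1 to 3 and the second sedentary samples 1 to 3.

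Igf2r (chr17:12961573-12964572, all region coordinates in mm9), the receptor that takes the growth factor IGF2 to lysosomes, had 28 positions. Its level was 36.8%, 40.1% and 38.5% in the exercised and 36.1%, 44.4% and 45.3% in the sedentary samples. The groups overlapped, with a difference of -3.46 points and an unadjusted edgeR p of 0.198. Cdkn1c (chr7:150645956-150648955), a cyclin-dependent kinase inhibitor that limits growth, had 25 positions and levels of 42.5%, 48.9% and 38.7% in the exercised and 52.7%, 43.2% and 46.5% in the sedentary samples. In these regions the middle level was held by most positions, 20 of 28 in Igf2r and 16 of 25 in Cdkn1c.

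Zrsr1 (chr11:22870005-22873004), a splicing-factor gene inside an intron of Commd1, had the most positions of the 65 regions, 34 over 1131 bp. It read 45.0%, 57.9% and 53.5% in the exercised and 54.0%, 52.2% and 51.7% in the sedentary samples. Its last 5 positions lay between 28.9% and 32.8%, and 5 others were at 96.5% or above. Plagl1 (chr10:12808594-12811593), a zinc-finger regulator of growth, had 13 positions within 61 bp and read 49.4%, 55.0% and 56.8% in the exercised and 41.5%, 56.0% and 58.4% in the sedentary samples. At 4 consecutive CpGs the strands read 39.7% and 33.3%, 40.3% and 33.0%, 41.8% and 30.5%, and 44.7% and 32.2%.

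Peg10 (chr6:4695306-4698305), a retrotransposon-derived gene needed in the placenta, read 44.9%, 48.2% and 59.4% in the exercised and 56.8%, 63.9% and 46.6% in the sedentary samples over 9 positions. Mcts2 (chr2:152510884-152513883), a retrogene, read 63.8%, 67.7% and 61.4%, and 49.8%, 73.0% and 53.5%, over 6 positions. Nnat (chr2:157383846-157386845), a small membrane protein gene inside an intron of Blcap, was the highest of the imprinted regions, with 70.1%, 65.8% and 64.4% in the exercised and 71.1%, 62.6% and 69.7% in the sedentary samples. In each of these 3 the groups overlapped.

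Gnas encodes the stimulatory G protein subunit from a locus with several alternative promoters, some methylated on the maternal and some on the paternal allele. Its upstream region (chr2:174107821-174110820, 6 positions) read 50%, 45.5% and 42.5% in the exercised and 41.9%, 56.7% and 77.5% in the sedentary samples. Sedentary sample 3, the sample with the lowest coverage, stood above the others, and the difference of -12.7 points was -3.28 points without it and -21.1 points without sedentary sample 1. The downstream region (chr2:174121360-174124359, 19 positions) read 65.4%, 62.2% and 60.8%, and 66.6%, 69.3% and 57.8%. A further Gnas region of 79 positions, too many for the choice, had a mean level over positions of 26.3%.

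None of the 9 imprinted regions had groups that did not overlap, and none had an unadjusted p under 0.05 by edgeR's quasi-likelihood test, where 7.25% and 2.37% of all tested regions did. When each of the 6 samples was left out in turn, 4 of the 9 had an unadjusted p under 0.05 by the same test at 1 or more omissions. Their groups then separated, which is easier with a smaller group. A single omission gave such a p in 1.69% to 6% of all tested regions. The share of all regions that reach it at any omission was not computed, so the 4 have no background to stand beside. Without sedentary sample 2, Mcts2 differed by 12.65 points (unadjusted edgeR p of 0.00537) in place of 5.53 points. Without sedentary sample 1, Igf2r differed by -6.41 points (p of 0.0104) and the upstream Gnas region by -21.1 points (p of 0.0183). Without exercised sample 2, Cdkn1c differed by -6.84 points (p of 0.0467) in place of -4.07 points. The groups of the downstream Gnas region also separated without sedentary sample 3, with a difference of -5.15 points. In the exercised samples 2 of the 9 were higher and 7 lower, with a median difference of -1.77 points, where 6117 of the 10021 tested regions were higher and the median was 0.390 points.

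The other 35 imprinted regions with 6 to 59 positions were mostly low by their mean level over positions: 27 had a mean level under 30%, 7 lay at 30% to under 70% and 1 was at 70% or more. Their median was 21.3%, and 6.60% without stand-alone positions, against 46.6% without them in the 9. Grb10 (17.0%), Dlk1 (17.2%), Inpp5f (17.1%), Copg2 (20.8%), Rasgrf1 (21.3%), Blcap (22.5%), Trappc9 (24.1%) and an Igf2 region (15.95%) had low mean levels over positions. All autosomal regions with 6 to 59 positions had a median of 21.8% and quartiles of 17.8% and 27.6%. Another Igf2 region stood above these quartiles, at 30.8%, and at 23.2% without stand-alone positions. The measured regions surround gene starts, and a control region that lies elsewhere in a locus is not covered by them. Mkrn3 stood closest to the choice, at 39.1% as a mean over positions (34.1% of reads) with 9 of 19 positions at 25% to 75%. By mean over positions, Usp29 (51.8%), Magel2 (52.8%) and Nap1l5 (59.9%) stood near the middle; each had 3 of 4 positions at 25% to 75% and had too few positions to be chosen. Peg12 had 87 positions, too many, with a mean level over positions of 29.9% and 23 positions at 25% to 75%. Of the genes that keep imprints, such as Dnmt1 and Ctcf, 0 of 14 regions with 6 to 59 positions were half-methylated.

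The 56 regions of other genes had a median level of 55.5% of reads. By textbook role, assigned after the genes were known, 8 are genes of germ cells or the early embryo, 8 of muscle or heart, 11 of blood, vessels, stroma or immunity, 3 are developmental regulators, and 26 have other or unknown roles.

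Genes of the germ line are typically methylated and silent in body tissues. Of a list of such genes, 10 regions had 6 to 59 positions, and 3 were half-methylated. Tdrd1 (chr19:56898699-56901698), a Tudor protein that binds Piwi proteins, read 60.8%, 66.2% and 60.9% in the exercised and 77.1%, 76.3% and 76.5% in the sedentary samples. All 3 exercised samples were lower; the difference was -14.0 points, with SDs of 3.12 and 0.399 points (n = 3 each). Adad1 (chr3:36960578-36963577), a double-stranded RNA binding protein of spermatids, read 39.9%, 40.6% and 45.3%, and 59.8%, 51.7% and 49%. Again the groups did not overlap, with a difference of -11.5 points. With positions of at least 20 reads the difference was -4.97 points, and its unadjusted p by edgeR was 0.118 in place of 0.00322. Adad1 had the highest share of middle positions of the 65 regions, 15 of 16. Rnf17 (chr14:57019534-57022533), another Tudor protein, read 69.9%, 60.2% and 70.1%, and 77.2%, 77.7% and 54.3%, and its groups overlapped. By mean level over positions, another 5 listed regions stood well above: Mov10l1 at 87.2%, Syce1 at 89.6%, Adad2 at 92.3%, Mael at 93.7% and Sycp1 at 94.0%, while Dazl was at 22.9%.

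The remaining genes of germ cells or embryos were Papolb, Psma8, Znrf4, Pou5f1 and Tdgf1. Pou5f1, the pluripotency factor OCT4, read 59.5%, 47.4% and 62.1% in the exercised and 46.6%, 47.6% and 51.7% in the sedentary samples. Tdgf1, a NODAL co-receptor of the embryo, read 53.2%, 45.2% and 39.7%, and 40.0%, 41.5% and 60.6%. Znrf4, a testis ubiquitin ligase with 21 positions, read 68.3%, 61.1% and 54.0%, and 54.8%, 58.6% and 52.4%. In all 3 the groups overlapped.

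The 8 regions of muscle or heart genes had mean levels of 47.5% to 67.7% and a median SD over the 6 samples of 5.89 points. Myoz1, a Z-disc protein of fast fibres, read 44.4%, 53.5% and 49.3% in the exercised and 41.7%, 46.3% and 63.8% in the sedentary samples. Alpk3, a muscle alpha-kinase, read 54.8%, 58.4% and 48.3%, and 53.5%, 52.0% and 53.3%. Chrna1, the alpha subunit of the muscle acetylcholine receptor, read 54.4%, 65.6% and 57.1%, and 74.1%, 60.4% and 60.5%. Mamstr, a coactivator of the muscle factor MEF2, read 51.8%, 47.0% and 44.2%, and 47.5%, 47.2% and 47.5%. Fgf6 had group means of 49.2% and 49.2% of reads, and Cacnb1, the beta subunit of the muscle calcium channel, 69.0% and 66.4%. Lrrc10, a heart leucine-rich repeat protein, and Kcnj11, the pore of the ATP-sensitive potassium channel, were at 56.7% and 61.8%. In none of the 8 did the groups separate, and differences ran from -5.95 to 2.59 points. In Chrna1, the 6 positions outside CCGG and TCGA with known letters lay between 45.6% and 53.0%.

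The 11 regions of genes of blood, vessels, stroma or immunity lay at 36.6% to 64.6%. Eng, a TGF-beta co-receptor of endothelium, had 1 of the smallest spreads, with 44.1%, 45.1% and 47.3% in the exercised and 46.5%, 47.3% and 47.0% in the sedentary samples. Cd93, a receptor of endothelial and myeloid cells, read 76.8%, 57.5% and 59.1%, and 62.0%, 61.4% and 71.0%. Arhgap45, a RhoGAP of blood cells, read 61.1%, 63.7% and 67.4%, and 59.8%, 56.0% and 57.5%, so that the exercised samples all stood above. Its difference of 6.32 points was 0.0612 points with positions of at least 20 reads. Fap, a protease of activated fibroblasts, read 65.3%, 58.5% and 57.8%, and 63.1%, 55.4% and 73.6%. The other 7, Gp1bb, Thpo, Vtn, F11r, Tlr12, Il17rc and Tnfsfm13, had overlapping groups, with differences of -2.90 to 5.88 points. None of the genes in the marker lists of muscle fibres, adipocytes, endothelium, leukocytes, fibroblasts, satellite cells, Schwann cells or smooth muscle was among the 65, although 8 endothelial, 5 fibroblast and 3 muscle-fibre regions had 6 to 59 positions. Cell mixture was therefore not measured by these lists, and its part in the levels was not tested.

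Of the 3 developmental regulators, the heart factor Hand1 read 44.9%, 51.8% and 45.1%, and 48.1%, 47.9% and 43.1%. Wnt5a, a secreted WNT ligand, read 46.0%, 55.9% and 52.7%, and 51.2%, 38.3% and 55.2%. Hoxb3, a homeobox factor of body patterning, read 52.7%, 54.1% and 53.2%, and 59.5%, 52.8% and 56.9%. Of the 26 regions of other or unknown role, 12 are described with the comparisons. The remaining 14 (Aatk, Amigo3, Aqp2, Dmap1, Elovl6, Fam110a, Kcns2, Pcbp4, Prr3, Pygl, Septin9, Ss18l2, Ush1c and 6330409D20Rik) had mean levels of 47.3% to 64.8% and differences of -6.13 to 3.33 points, and in each the groups overlapped.

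The rule used the mean of all 6 samples and not the difference between the groups, so exercised and sedentary samples were compared. edgeR's quasi-likelihood test was fitted to 10021 regions and, after Benjamini-Hochberg adjustment at 0.05, called 0 (background 0%), and 0 of the 65. At an unadjusted p under 0.05 the fit had 237 regions (2.37%) and 11 of the 65, all of genes outside the imprinted list, 4 higher and 7 lower in the exercised samples (background 1.46% and 0.908%). limma, on levels and on log2 ratios, also adjusted to 0 calls and had 11 of the 65 at an unadjusted p under 0.05. Of all regions, 2.94% and 2.82% had such a p by limma. The groups did not overlap in 727 regions (7.25%) and in 10 of the 65, 5 in each direction (background 4.91% higher and 2.35% lower). In the 1272 non-uniform regions, 31 (2.44%) had an unadjusted p under 0.05 and 89 (7%) did not overlap. The 11 and 10 regions are 16.9% and 15.4% of the 65, but no single region passed the adjustment. With positions of at least 20 reads, 7 of 45 regions (15.6%) had an unadjusted p under 0.05, against 2.21% of all regions fitted that way. With stand-alone positions left out, 5 of 63 did (7.94%), against 3.39% of all. In that fit all 11 regions kept their direction. Gdf15 and Mettl8 have no stand-alone position and kept differences of 10.02 and -13.6 points, while their unadjusted p rose from 0.00936 to 0.179 and from 0.00899 to 0.101.

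Tmem88, a membrane inhibitor of WNT signalling (chr11:69210737-69213736, 19 positions), had the smallest p of those higher after exercise. It read 61.7%, 62.6% and 66.2% in the exercised and 49.3%, 51.7% and 45.0% in the sedentary samples. The difference was 14.8 points, with an unadjusted p of 9.98e-05 and an adjusted p of 0.5 by edgeR's quasi-likelihood test. Tdrd1 had the smallest of those lower, with an unadjusted p of 4.5e-05 and an adjusted p of 0.451. Gdf15, a stress-induced secreted factor, read 52.3%, 60.3% and 62.9%, and 48.0%, 47.1% and 50.3%, a difference of 10.02 points. Prr23a3 differed by 6.76 points and Zfp180 by 5.48 points, both with exercised samples above. Leaving out its stand-alone positions gave 10.2 points for Prr23a3, and leaving out sedentary sample 3 gave 3.55 points for Zfp180.

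On the lower side, Cntn4, an axon-guidance adhesion protein, read 30.8%, 42.5% and 29.5% in the exercised and 45.3%, 46.6% and 60.0% in the sedentary samples over its 6 positions, which differ by -16.4 points. Nlgn2, the adhesion protein of inhibitory synapses, read 33.2%, 42.9% and 30.7%, and 42.6%, 49.5% and 56.1%, and here exercised sample 2 reached above sedentary sample 1. Mettl8, a mitochondrial tRNA methyltransferase, differed by -13.6 points and Fbxo46, an F-box protein, by -12.3 points, neither with overlap. Fbxo46 has 4 stand-alone positions, and leaving them out gave -22.8 points. Apart from Tdrd1 and Tmem88 edgeR's adjusted p was 0.9998 for each of these. Tdrd1, Tmem88, Nlgn2 and Mettl8 kept their direction in each of the 10 alternatives run for their differences. Cntn4 and Fbxo46 did in 9, since the setting of at least 20 reads gave no value for them. Most of these settings could not have turned the direction. Where groups do not overlap, as in all of these but Nlgn2, omitting a sample or pairing by number cannot turn it. Removal of the most covered positions changed no value.

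**Figure D4:**
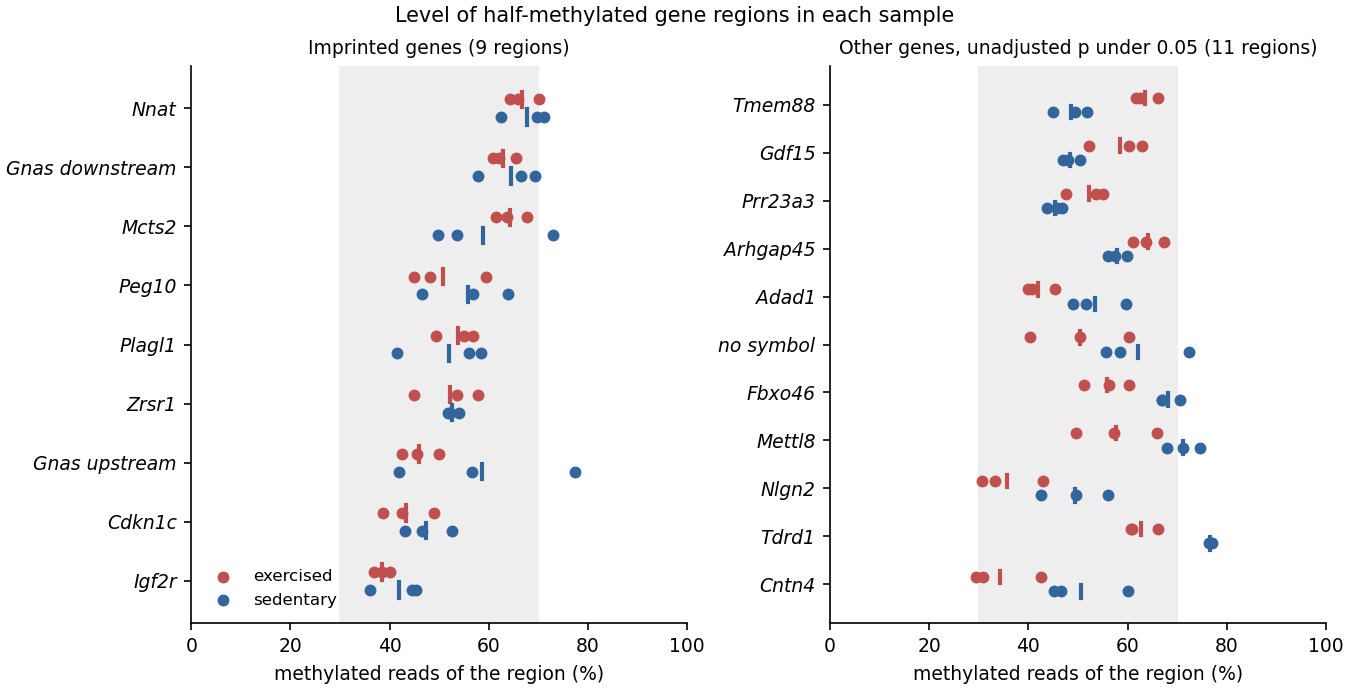
Level of each region in each sample (x axis, percent of reads methylated), for the 9 imprinted regions (left) and the 11 other regions with an unadjusted p under 0.05 (right); points are samples, vertical bars group means, and the grey band 30% to 70%. The groups overlap in each imprinted region, while in Tmem88 all exercised samples lie above and in Tdrd1 all lie below the sedentary samples.

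In the exercised samples 26 of the 65 regions stood higher and 39 lower, with a median difference of -0.534 points. Among all tested regions 6117 were higher and 3904 were lower, and the median was 0.390 points. The median was 0.313 points without sedentary sample 2 and between -1.39 and -0.00589 points without any other single sample. For the 56 regions of other genes it was -0.188 points (24 higher, 32 lower). Per sample, the median level of the 65 regions was 52.0%, 57.2% and 54.0% in the exercised and 53.5%, 55.4% and 55.3% in the sedentary samples. For single positions, the authors' deposited table has an unadjusted p under 0.05 at 34 of the 704 positions of these regions with a p, 17 in each direction, where 3.13% of all its positions do (2.15% higher and 0.983% lower). Among positions at 25% to 75%, the authors' deposited table has 26 of 477 in these regions and 3.43% overall.

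**Figure D5:**
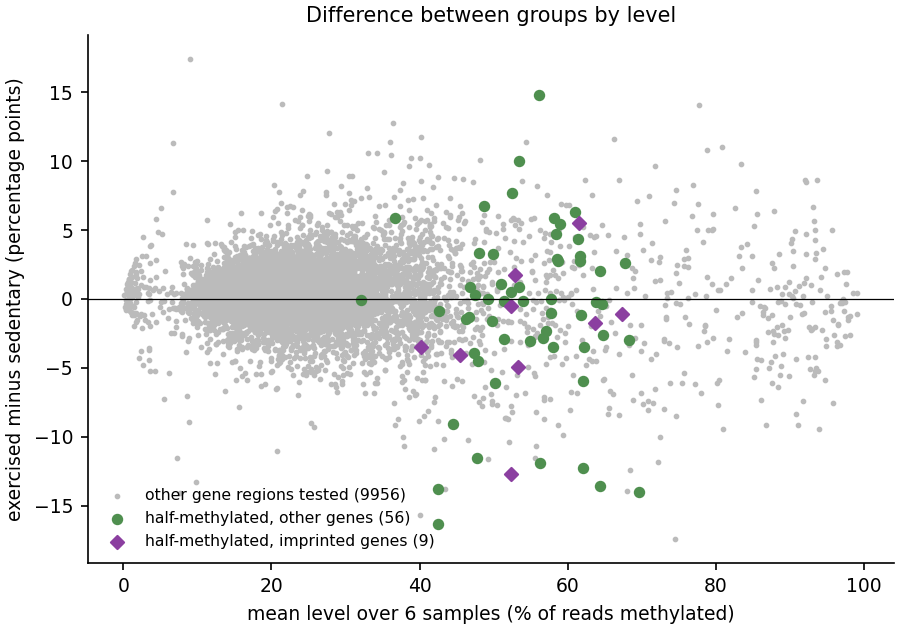
Exercised minus sedentary (y axis, percentage points) against the mean level over 6 samples (x axis, percent of reads methylated) for each tested gene region. The 65 half-methylated regions, of imprinted (diamonds) and other genes (green circles), spread from -16.4 to 14.8 points around a median of -0.534 points.

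Half-methylated regions varied more between samples than non-uniform regions, whose level was lower. Their median SD over the 6 samples was 6.55 points, against 2.97 points in the 1272 non-uniform regions and 1.94 points in all tested regions. Part of this follows from the choice, since a position at a middle level has the largest counting error and these regions have fewer positions (median 8, against 10 and 19). Observed variance divided by that expected from read counts at each position's own level had medians of 6.05, 3.60 and 3.69 in the 3 sets. The expected variance takes the positions of a region as independent. Neighbouring positions can lie on the same reads, and then it is too small. How far this differs between the 3 sets was not tested, so these ratios do not show a larger spread beyond counting error. At single positions of 25% to 75%, the median SD was 14.8 points in the half-methylated regions, 14.6 points in the non-uniform regions and 13.6 points at all such positions outside the 65. The variance ratios were 3.08, 3.70 and 4.16, and the median coverages 34.7, 41.5 and 54 reads. The ratio moved with coverage across these 3 sets, and the part of coverage in it was not tested.

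The smallest spreads were in Myl12b, Eng and 4930524B15Rik. Myl12b read 32.1%, 30.3% and 33.6% in the exercised and 31.5%, 33.4% and 31.4% in the sedentary samples, an SD of 1.26 points over 25 positions. Eng had an SD of 1.32 points and 4930524B15Rik 2.44 points, with variance ratios of 3.06 and 0.481. The largest were in the upstream Gnas region (13.5 points), Cntn4 (11.3 points) and the region without a symbol match (chr17:29270001-29273000, 10.7 points), each with 6 positions. The latter read 40.2%, 50.4% and 60.3%, and 58.5%, 72.4% and 55.7%. Ethe1, a mitochondrial sulfur dioxygenase named after its values were seen, had the highest variance ratio of the 65, 37.2. It read 58.9%, 67.3% and 56.2%, and 39.9%, 61.5% and 66.8%, with sedentary sample 1 below the rest.

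The regions were spread over 18 of the 19 autosomes, with 11 each on chromosomes 2 and 11, which also had the most regions with 6 to 59 positions (669 each, of which 1.64% were half-methylated). Chromosome 17 had the highest share, with 6 of 353 (1.70%), chromosome 7 had 8 of 567 (1.41%), and chromosome 13 had 0 of 261. Promoters of 300 bases (GRCm38.p6) were matched in RefSeq by symbol for 48 of the 63 genes, 70 promoters in all, alternative starts included. The median ratio of observed to expected CpG was 0.839 in 9 promoters of imprinted genes and 0.524 in 61 of the others. As matching was by symbol, a promoter need not be that of the half-methylated region. Alternative starts of Gnas gave 0.650, 0.839, 0.871 and 0.903 of the 9 values, the median among them. The rest were Zrsr1 (0.475), Nnat (0.690), Plagl1 (0.696), Igf2r (0.910) and Mcts2 (0.991). The median ratio was 0.776 in 7638 promoters of the genes outside the choice and 0.384 in all 32851. The letters TGCCGC, on either strand, were in 3 of the 9 imprinted and 12 of the 70 promoters (17.1%), against 20.5% of promoters outside the choice and 11.6% of all. CCGG was in 77.1% of the 70, in 85.3% of those outside and in 52.8% of all, and TCGA in 24.3%, 29.5% and 21.99%. CCGG and TCGA read the same on both strands, and neither lies within TGCCGC.

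Which regions are counted depends on depth. Total coverage ran from 9153526 to 18656340 reads over positions per sample, lowest in sedentary sample 3, and a position of the half-methylated regions had a median of 21 to 41 reads per sample. With at least 20 reads in all 6 samples at each position, 22 of the 65 still had 6 positions and 21 of these were still half-methylated, Igf2r, Cdkn1c, Zrsr1, Plagl1, Nnat and 1 Gnas region among them. Chosen on the exercised or on the sedentary samples alone, the rule found 59 and 71 regions, which held 55 and 58 of the 65, and all 9 imprinted regions both times. Without positions that stand alone, a choice made after seeing the data, 59 regions met the rule and 46 were shared, with 8 of the 9 imprinted.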

How the data were processed

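RRBS was measured in 3 exercised and 3 sedentary samples. For each cytosine position the authors deposited a methylated fraction (0 to 1) and a coverage count per sample, and, per position, an unadjusted p-value, a difference of group means and a class, in 1 table keyed by RefSeq transcript (mm9 coordinates). Bismark 0.7.7, Bowtie 0.12.9, cutadapt 1.0 and Trim Galore 0.2.5 are named, without settings, per the submitters' processing notes. Deposited coverage was at least 10 reads in every sample, and fraction times coverage was whole within 0.00236 of a read, which gave methylated and unmethylated counts. These were summed per region and tested with edgeR 4.0.16 (quasi-likelihood, a term for each sample and for the group, R 4.3.3) over 10021 regions with at least 3 positions and reads of both kinds, with Benjamini-Hochberg adjustment at 0.05. limma 3.58.1 was an alternative. The scripts were tested on simulated data. Symbols were matched for 10655 of 10755 transcripts through RefSeq tables made for GRCm38.p6, and no coordinates were converted.

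Total coverage of 9153526 to 18656340 sets the precision per sample. As the labels mention no molecular identifiers, a read need not be an independent molecule. In the counts summed per region, a read that covers several positions is counted at each of them. No pair of samples agreed within sampling noise (lowest mean chi-square per position 1.64, where noise alone gives about 1), so all 6 were kept. The regions, gene lists (imprinted genes in 2 lists, genes that keep imprints, germ-line genes, metastable epialleles, and markers of 8 cell types) and tests were chosen with earlier results of these data known. Named genes were the members of the first 5 lists, the 5 smallest p per direction and the 3 smallest and largest SDs (both where coverage averaged 20 reads or more), the 5 with most positions, the 2 nearest to each bound, imprinted genes outside the choice, and, by textbook role, examples picked after their values were seen. No region with the required share of positions lay just below a mean level of 30%. For the metastable epialleles, 0 of 2 regions were half-methylated. The alternatives tried were leaving out each sample, a replicate block, higher coverage, removal of the most covered (above the 99.9th percentile) or stand-alone positions, limma on levels and on log2((methylated + 2)/(unmethylated + 2)), at least 6 positions, and other bounds of the rule.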

Additional observations from a re-analysis of the deposited data

How the results depend on the processing

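With positions of at least 20 reads in all samples 43 regions met the rule (21 shared with the 65), and 12 did with at least 75% of positions at 25% to 75%. Of these 12, 2 were imprinted, Plagl1 and 1 Gnas region, so most of the imprinted regions did not meet the stricter share. Peg10 did not meet the rule without exercised sample 1, exercised sample 2 or sedentary sample 2. With positions of at least 20 reads, 7 of 45 remaining regions had an unadjusted edgeR p under 0.05 (2.21% of all regions) and 6 did not overlap. Shares of all regions without overlap were not computed for the alternatives. Leaving stand-alone positions out gave 5 of 63 at an unadjusted edgeR p under 0.05 (3.39% of all regions). Only regions that keep to the rule in each group alone, a choice made after seeing the data, gave 7 of 50 (2.37% of all regions). Leaving out 1 sample gave 13 to 17 regions without overlap, partly because a smaller group overlaps less easily, 60 to 69 regions by the rule, and a median spread of 5.02 to 6.61 points. No alternative gave an adjusted call over all regions. Same-numbered samples of the groups did not deviate together (correlations of 0.019, -0.219 and -0.111), so the values gave no sign of pairing by number. With 3 samples per group, these correlations cannot exclude a pairing. Under the replicate block 9 of the 65 had an unadjusted edgeR p under 0.05 (2.04% of all regions) and 0 an adjusted one. The median over the 65 regions of the median pairwise difference was -0.736 points.

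Among the differences of named regions, 255 recomputed values kept their sign and 25 did not, and the cause was not tested. As no region was called in any setting, these counts do not bear on called regions. Removal of the most covered positions left the named differences as they were, so no sign could change there. In regions without overlap, no sign could change under the replicate block or when a sample was left out. Under the replicate block the values that changed sign were Zrsr1 (1.79 points), Plagl1 (-1.02), Myl12b (0.639), 4930524B15Rik (-0.294) and Cacnb1 (-3.80). With at least 20 reads they were the downstream Gnas region (0.516), Myl12b (0.351) and Eng (7.01), and without stand-alone positions Myl12b (1.10) and F11r (0.351). Leaving out single samples, differences ran from -3.41 to 3.05 points in Zrsr1, -3.46 to 4.99 in Plagl1, -10.7 to 0.991 in Rnf17, -0.849 to 0.796 in Myl12b, -1.54 to 2.25 in 4930524B15Rik, -4.22 to 6.96 in Cacnb1, -5.15 to 0.591 in the downstream Gnas region, -3.68 to 0.594 in Nnat and -2.06 to 0.652 in F11r.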
